A study of Mus musculus with 11 samples.

Results

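The plasminogen activator system was followed here through 5 genes, *Plau*, *Plaur*, *Plat*, *Serpine2* and *Serpinb2*, of the 20284 genes that could be named on the array and the 18565 with a probe that passed the filter on dim probes. Each of the 5 genes had 1 probe, spotted once, and all 5 passed that filter. They were chosen by their role in this system, with their levels in the 3 groups already known, so their differences between groups are given as descriptions without a test.

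Plasmin is a broad protease that is cut from the circulating precursor plasminogen by 2 activators. Urokinase, the product of *Plau*, acts mostly at the cell surface, where it is held by its receptor, the product of *Plaur*, while tissue plasminogen activator, the product of *Plat*, is best known for dissolving fibrin clots and for its roles in the nervous system. Serine protease inhibitors of the serpin family shut the activators down. *Serpine2* encodes protease nexin-1, a secreted inhibitor of thrombin, urokinase and tissue plasminogen activator, and *Serpinb2* encodes plasminogen activator inhibitor type 2, much of which stays inside the cell. The system is known for matrix breakdown, cell migration and wound repair.

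RNA from 3 kinds of material had been hybridized in 1 colour (Cy3) to 11 arrays. CSE, the cochlear sensory epithelium that holds the hair cells and supporting cells, was dissected from ICR mice on postnatal day 1, with 10 mice and 20 cochleae pooled per preparation, and gave 3 arrays. Otospheres are floating spheres grown from trypsin-dissociated CSE cells in serum-free medium with bFGF, IGF1 and heparan sulfate. They were dissociated with trypsin again, replated once, cultured for 4 to 5 days before and after that passage, and gave 6 arrays (OS1 to OS6). ESCs were 2 embryonic stem cell lines at passage 13, G4-2 and D3, grown in serum with LIF without feeder cells, and each gave 1 array, so that the spread of the ESC group is a difference between lines. The arrays OS1 and OS2 were averaged into 1 sample, written OS1+OS2, and so were OS4 and OS5, which left 4 otosphere, 3 CSE and 2 ESC samples. OS4 and OS5 differed by 0.473 times the noise seen among repeated spots of 1 probe, whereas OS1 and OS2 were at the edge of that noise (1.09 times over probes with a mean log2 signal above 8 and 0.968 times above 11). The next closest pair within a group, CSE1 and CSE3, was at 1.95 times.

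Median spot signals of the arrays lay between 68 and 116 over a local background of 32 to 38, the scanner flagged 55.1% to 71.6% of spots as well above background, and 0 spots were saturated. The number of arrays limits the precision. The arrays lay on 2 slides, with ESC1, OS1 to OS3, CSE1 and CSE2 on the first and ESC2, OS4 to OS6 and CSE3 on the second. The labels do not say whether the arrays of a group came from separate preparations, so the errors cover the spread between these samples. As a check of the labels, 6 of 6 pluripotency markers were well above background on both ESC arrays, and 3 of the 6 were so on every otosphere and CSE array too. Of the 6, *Nanog*, read from its brightest kept probe, went against the label. Its mean log2 signal was 9.82 for otospheres, 10.03 for CSE and 8.38 for ESCs. The paper lists *Nanog* among the genes upregulated only in ESCs, so the signal of this probe is not taken as the level of the gene. The summed linear signal of the list was 727 to 2060 for otosphere samples, 983 to 1593 for CSE samples and 272561 to 293594 for ESC samples. All 6 markers of cochlear epithelium were well above background on every CSE and otosphere array, and 2 of the 6 on both ESC arrays. Hair cell markers (6 genes) summed to a linear signal of 20728 to 22772 in CSE samples, 1918 to 6241 in otosphere samples and 1719 to 2107 in ESC samples. In bulk RNA, fewer cells that express a gene and less of its RNA per cell cannot be told apart.

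Promoter sequences are shown for the receptor and both inhibitors, for comparison with the levels given below (*Plaur* and *Serpinb2* low in CSE, *Serpine2* unequal among otospheres). They are the 250 bases before the annotated start site from RefSeq, on the build GRCm38.p6. *Plau* and *Plat* had no entry in that table. Capitals mark the AP-1 motif TGANTCA in *Plaur* (chr7:24462233-24462482, plus strand), the same motif and the TATA box TATAAA in *Serpinb2* (chr1:107511173-107511422, plus strand), and the GC box GGGCGG in *Serpine2* (chr1:79858666-79858915, minus strand).
Plaur: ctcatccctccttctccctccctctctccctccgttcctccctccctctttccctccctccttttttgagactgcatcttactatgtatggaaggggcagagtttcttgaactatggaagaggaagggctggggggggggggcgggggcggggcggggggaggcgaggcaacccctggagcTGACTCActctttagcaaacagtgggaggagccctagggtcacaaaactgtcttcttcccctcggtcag
Serpinb2: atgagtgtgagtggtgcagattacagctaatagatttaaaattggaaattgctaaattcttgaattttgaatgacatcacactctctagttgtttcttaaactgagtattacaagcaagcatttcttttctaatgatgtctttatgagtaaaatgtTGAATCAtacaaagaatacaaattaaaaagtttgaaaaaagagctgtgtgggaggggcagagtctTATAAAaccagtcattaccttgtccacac
Serpine2: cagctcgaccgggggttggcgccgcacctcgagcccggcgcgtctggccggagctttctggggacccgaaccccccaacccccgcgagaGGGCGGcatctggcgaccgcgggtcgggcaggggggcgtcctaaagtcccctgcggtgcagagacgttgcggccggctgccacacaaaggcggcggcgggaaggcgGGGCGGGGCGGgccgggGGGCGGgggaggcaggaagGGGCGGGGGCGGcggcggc
Both strands were searched over windows of 300 bases, and overlapping matches were counted. The AP-1 motif, bound by the Fos and Jun family of growth-factor-responsive factors, began at -69 from the start site in *Plaur* and at -94 in *Serpinb2*, and these letters did not occur in the window of *Serpine2*. Of all 32851 promoter windows in the table, 7.81% held it. The TATA box began at -29 in *Serpinb2* and is in 13.6% of all windows. A second annotated start of *Serpinb2* lies downstream, so that the same 2 matches stand at -181 and -116 from it. The GC box, bound by Sp1-type factors, matched 3 times in *Plaur* and 6 times in *Serpine2* and is in 35.7% of all windows. These matches describe the letters only.

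The levels of the 5 genes fell into 4 patterns across the 3 kinds of cells. *Plau* and *Serpinb2* were high in otospheres and near the background in CSE and ESCs. *Plaur* was high in otospheres and ESCs and low in CSE. *Plat* was high in otospheres and CSE and low in ESCs. *Serpine2* overlapped between all 3 groups and varied most within the otospheres.

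**Figure D1:**
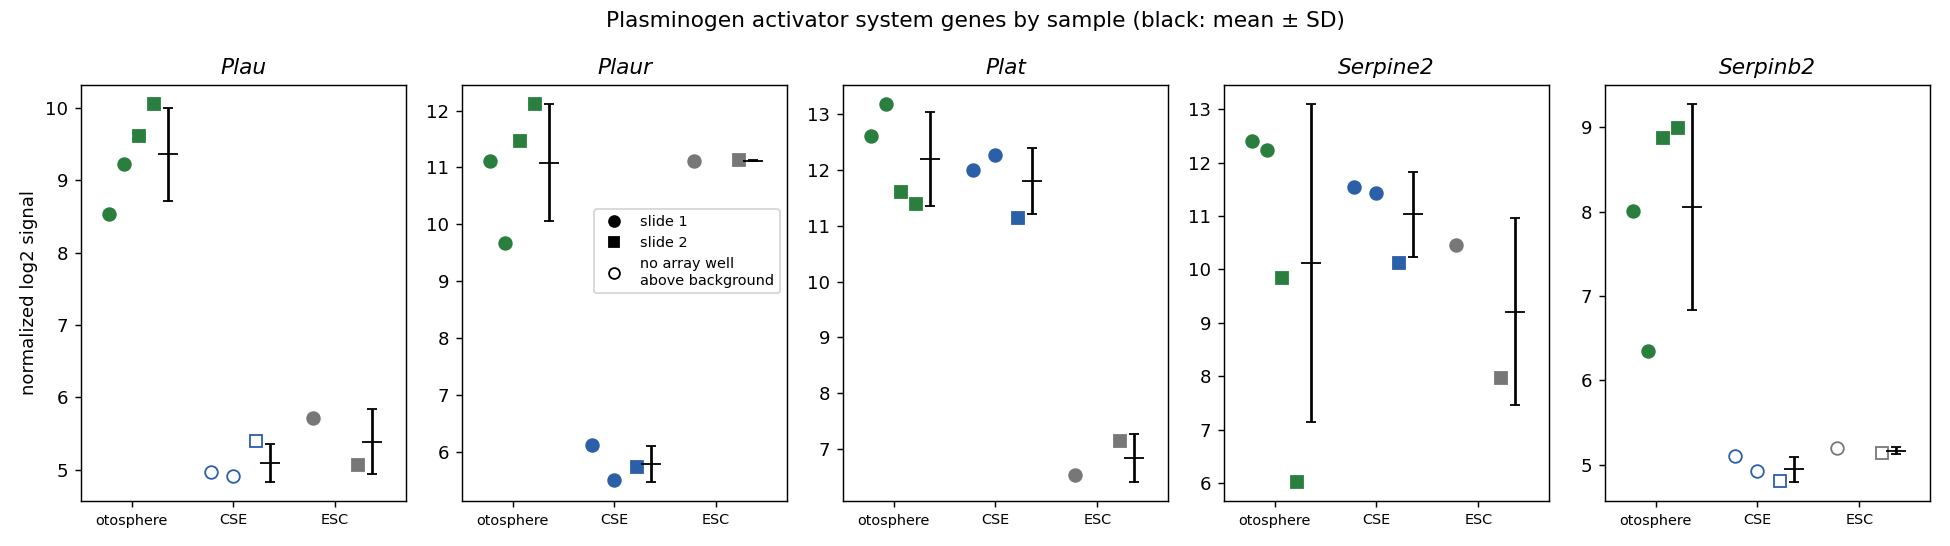
Normalized log2 signal (vertical axis, 1 scale per gene) of the 5 genes in 4 otosphere, 3 CSE and 2 ESC samples (horizontal axis). Circles are samples of slide 1, squares those of slide 2, open symbols groups in which no array was well above background, and black bars the mean ± SD. *Plau* and *Serpinb2* were at 8.54 and 6.35 or more in every otosphere sample and at most at 5.71 and 5.20 elsewhere, and *Serpine2* ranged from 6.02 to 12.40 among otospheres.

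Among the activators, *Plau* had a normalized log2 signal of 8.54 in OS1+OS2, 9.22 in OS3, 9.61 in OS4+OS5 and 10.06 in OS6, against 4.97, 4.91 and 5.39 in CSE1 to CSE3 and 5.71 and 5.07 in ESC1 and ESC2. Every otosphere sample was above every CSE and ESC sample. The spot of *Plau* had a median intensity of 358 to 1399 on the otosphere arrays, and of 37 to 49 over a background of 34 to 35 on the CSE arrays. It was well above background on 6 of 6 otosphere arrays, 0 of 3 CSE arrays and, among ESCs, on the G4-2 array (ESC1) alone. The urokinase transcript was thus detected in every otosphere sample and was not well above background in the tissue that otospheres are grown from. The group means were 9.36 ± 0.64 (SD, n = 4) in otospheres, 5.09 ± 0.26 (n = 3) in CSE and 5.39 ± 0.45 (n = 2) in ESCs. With the background offset of 16, otospheres were at least 18.7-fold above CSE in the group means, a bound because CSE was not well above background. The log2 difference was 4.27 (SE 0.35), and 3.94 within the first slide and 4.44 within the second. It was 3.34 with an offset of 50, and 3.67 with every array separate and replicate number as a block. Both of these settings and the first slide taken by itself lay under the bound. Against ESCs, otospheres were 15.7-fold higher (log2 difference 3.97, SE 0.39), with only 1 of the 2 ESC arrays well above background. This difference was 3.17 within the first slide, 4.77 within the second and 5.61 with the scanner's processed intensity scaled to the 75th percentile of each array. CSE and ESC samples overlapped.

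*Plat* had a log2 signal of 12.61 in OS1+OS2, 13.19 in OS3, 11.61 in OS4+OS5 and 11.40 in OS6, against 11.995, 12.27 and 11.14 in the CSE samples and 6.53 and 7.13 in the ESC samples. Otospheres and CSE overlapped, and all of their samples were above both ESC lines. The group means were 12.20 ± 0.84 (SD, n = 4), 11.80 ± 0.59 (n = 3) and 6.83 ± 0.43 (n = 2) for otospheres, CSE and ESCs. The difference of 0.40 between otospheres and CSE was smaller than its SE of 0.46. Tissue plasminogen activator was 41.4-fold higher in otospheres than in ESCs (log2 difference 5.37, SE 0.53) and 31.3-fold higher in CSE than in ESCs (4.97, SE 0.55). All 11 arrays were well above background for this probe. The tissue thus carried *Plat* with *Plau* not well above background, and the otospheres carried both activators.

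Endothelial cells, which are known to release tissue plasminogen activator, were checked by 7 marker genes. The summed linear signal of that list was 7459 to 10927 in otosphere samples, 15584 to 19002 in CSE samples and 6001 to 7723 in ESC samples, and 3 of the 7 markers were well above background on every otosphere array. All 7 had a lower mean log2 signal in otospheres than in CSE. The receptor gene *Kdr*, the brightest of the list in each group, was at 12.92 ± 0.26 (SD, n = 4) in otospheres and 13.25 ± 0.066 (n = 3) in CSE. In ESCs it was at 12.52 ± 0.23 (n = 2). *Emcn* was at 9.46 ± 2.82 in otospheres and 11.49 ± 0.38 in CSE. In the same order, *Pecam1* was at 6.80 and 7.36, *Cdh5* at 5.97 and 8.59 and *Tek* at 5.91 and 7.41. *Cldn5* was at 5.45 ± 0.060 and 11.69 ± 0.79, and *Tie1* was well above background on 0 of 6 otosphere arrays and 3 of 3 CSE arrays. The part of endothelial cells in the *Plat* level was not tested.

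The receptor gene *Plaur* had a log2 signal of 11.11 in OS1+OS2, 9.67 in OS3, 11.46 in OS4+OS5 and 12.11 in OS6, against 6.13, 5.50 and 5.74 in CSE and 11.12 and 11.13 in ESCs. Otospheres and ESCs overlapped, and all of these samples were above the CSE samples. The means were 11.09 ± 1.03 (SD, n = 4) in otospheres, 5.79 ± 0.32 (n = 3) in CSE and 11.12 ± 0.0084 (n = 2) in ESCs, where the 2 lines were almost at the same value. *Plaur* was 39.3-fold higher in otospheres than in CSE (log2 difference 5.30, SE 0.49; 4.58 within the first slide and 6.05 within the second). It was 40.3-fold lower in CSE than in ESCs (log2 difference -5.33, SE 0.59). The log2 difference between otospheres and ESCs was -0.03 with an SE of 0.56, and it was -0.73 within the first slide and 0.66 within the second. ESCs carried the receptor transcript with *Plau* well above background on 1 of 2 arrays, CSE had a low receptor signal with *Plau* on 0 of 3, and otospheres carried both.

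Macrophages express *Plau*, *Plaur* and *Serpinb2*, and 9 of 10 listed macrophage markers had a kept probe. Their summed linear signal overlapped between otospheres (14386 to 27611) and CSE (11397 to 32067) and was 5690 to 6231 in ESCs, and 5 of the 9 were well above background on all otosphere arrays against 9 of 9 on all CSE arrays. *Cd14*, the co-receptor for bacterial lipopolysaccharide, had a mean log2 signal of 12.52 ± 1.66 (SD, n = 4) in otospheres and 7.02 ± 0.52 (n = 3) in CSE, while *Tyrobp*, an adaptor of myeloid receptors, was at 5.67 ± 0.81 and 9.65 ± 0.22 and *Fcer1g* at 7.01 ± 0.28 and 9.87 ± 0.33. *Csf1r* (11.17 and 12.36), *Adgre1* (5.97 and 7.18), *Aif1* (7.97 and 9.49) and *Lyz2* (5.53 and 6.27) were also lower in otospheres than in CSE. *Ptprc* was at 5.72 in both. *Itgam* had the highest mean of the list in each group, at 13.08 in otospheres, 13.07 in CSE and 11.72 in ESCs. Among otosphere samples *Itgam* ranged from 12.18 to 14.07 and *Cd14* from 10.31 to 14.32. Among CSE samples *Itgam* ranged from 11.97 to 14.57 and *Csf1r* from 12.13 to 12.54. No single gene thus weighs most in every sum. The part of macrophages in the levels of the 3 genes was not tested.

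*Serpinb2*, the type 2 inhibitor, had a log2 signal of 8.01 in OS1+OS2, 6.35 in OS3, 8.88 in OS4+OS5 and 9.00 in OS6, against 5.10, 4.93 and 4.80 in CSE and 5.20 and 5.14 in ESCs. Every otosphere sample was above all others, with OS3 closest to them. The median intensity of the spot was 256 to 798.5 on the otosphere arrays other than OS3, 70 on OS3, and 36 to 47 over a background of 33 to 37 on the CSE and ESC arrays. It was well above background on 6 of 6 otosphere arrays and on 0 of 5 others. The means were 8.06 ± 1.22 (SD, n = 4), 4.94 ± 0.15 (n = 3) and 5.17 ± 0.038 (n = 2). Otospheres were at least 8.15-fold above CSE and at least 7.41-fold above ESCs, with log2 differences of 3.11 (SE 0.56) and 2.89 (SE 0.64). The bound against ESCs was the same as the fold of the fitted difference. The difference from CSE was 2.16 within the first slide and 4.13 within the second, and that from ESCs 1.98 and 3.79. The first slide taken by itself thus lay under both bounds, which are of the group means. With a background offset of 50 both differences lay under their bounds too, and that from ESCs was 2.15. With the slide as a block the difference from CSE was also under its bound. Neither CSE nor ESCs were well above background on any array, so no fold is given between them.

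*Serpine2*, the gene of protease nexin-1, had a log2 signal of 12.40 in OS1+OS2, 12.23 in OS3, 9.85 in OS4+OS5 and 6.02 in OS6, against 11.55, 11.44 and 10.11 in CSE1 to CSE3 and 10.45 and 7.97 in ESC1 and ESC2. OS1+OS2 and OS3 were above all CSE and ESC samples, OS4+OS5 was below the CSE samples and between the ESC lines, and OS6 was below all other samples. The means were 10.13 ± 2.98 (SD, n = 4), 11.03 ± 0.80 (n = 3) and 9.21 ± 1.76 (n = 2), and all 11 arrays were well above background. The log2 differences were -0.91 (SE 1.44) between otospheres and CSE, 0.92 (SE 1.63) between otospheres and ESCs and 1.83 (SE 1.72) between CSE and ESCs. The first and the second were smaller than their errors and the third was about as large as its error. Between otospheres and CSE the difference was 0.82 within the first slide and -2.18 within the second. The ESC lines differed as well, with the G4-2 line above the D3 line.

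**Figure D2:**
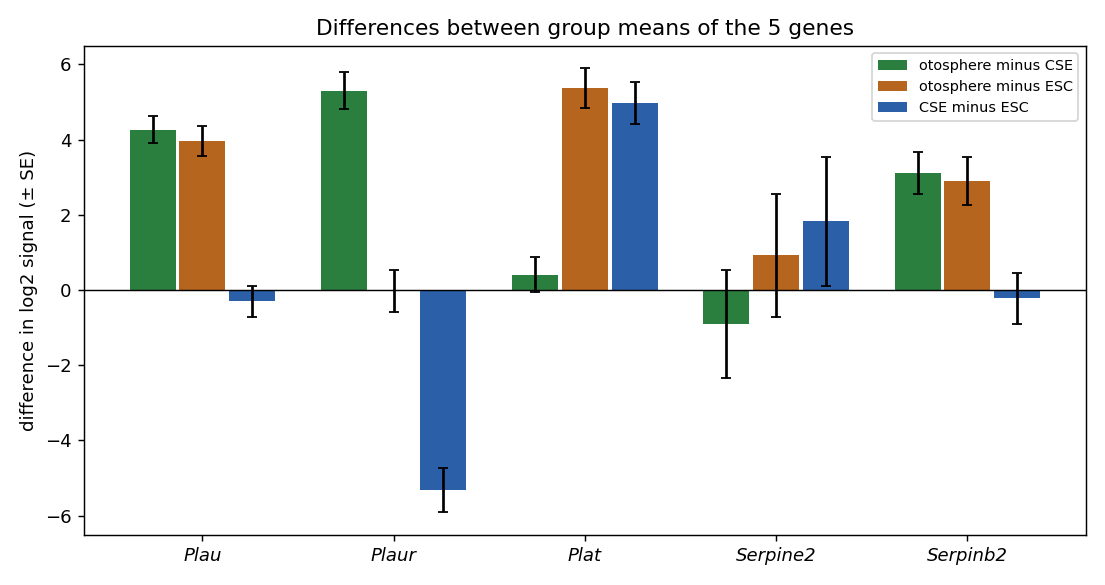
Difference in log2 signal between group means (vertical axis, bars with ± SE) for the 5 genes (horizontal axis) in the 3 pairs of groups. *Plau*, *Plaur* and *Serpinb2* were 3.11 to 5.30 higher in otospheres than in CSE, *Plat* differed from ESCs in both other groups, and the differences of *Serpine2* were smaller than or about as large as their errors.

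Of the 5 genes, 3 (*Plau*, *Plaur* and *Serpinb2*) had all otosphere samples above all CSE samples, a pattern found in 14.1% of named genes. Against ESCs, 3 (*Plau*, *Plat* and *Serpinb2*) had all otosphere samples higher, which held for 25.9% of named genes. Between CSE and ESCs, *Plat* was higher in all CSE samples (31.6% of named genes), and *Plaur* and *Serpinb2* were lower in all (31.7%), the latter with neither group well above background on any array. Since the genes were chosen with these levels known, nothing is read from the counts.

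The 5 genes also varied among the otosphere samples, and the slides divided them. *Plau*, *Plaur* and *Serpinb2* were higher, and *Plat* and *Serpine2* lower, in both samples of the second slide than in both samples of the first. The difference of the second slide from the first was 0.95 (SE 0.32) for *Plau*, 1.40 (SE 0.53) for *Plaur* and 1.76 (SE 0.56) for *Serpinb2*. It was -1.40 (SE 0.27) for *Plat* and -4.39 (SE 1.22) for *Serpine2*. None of the 5 passed limma's test over all kept probes with 2 samples per slide, with adjusted p-values of 0.309, 0.363, 0.291, 0.191 and 0.251 in that order, and 0% of named genes did. Unadjusted limma p-values were under 0.05 for all 5 genes and for 6409 of 47997 probes. With every array as a separate sample, 3 per slide, which counts the closest arrays as independent, 4353 probes passed, among them *Plat* (log2 difference -1.27, SE 0.19, adjusted p = 0.0150) and none of the other 4 genes (adjusted p from 0.0612 to 0.180). Slide and otosphere preparation cannot be told apart.

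**Figure D3:**
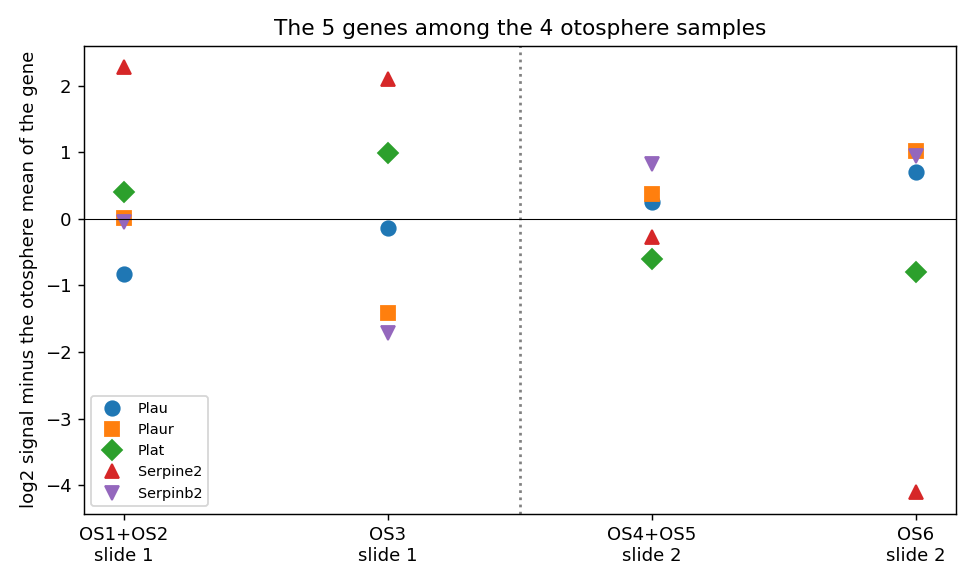
Log2 signal of each gene minus its mean over the 4 otosphere samples (vertical axis) by sample and slide (horizontal axis). *Plau*, *Plaur* and *Serpinb2* were higher and *Plat* and *Serpine2* lower on the right of the dotted line, the second slide, and *Serpine2* had the widest spread.

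From the highest to the lowest otosphere sample, *Serpine2* spanned 83.5-fold, *Serpinb2* 6.28-fold, *Plaur* 5.42-fold, *Plat* 3.46-fold and *Plau* 2.87-fold. The SD of *Serpine2* among otospheres was larger than that of 99.8% of named genes, and those of *Serpinb2*, *Plaur*, *Plat* and *Plau* were larger than 96.0%, 94.2%, 91.1% and 85.2%, where the median named gene had an SD of 0.28. OS6, with the lowest *Serpine2* and *Plat*, had the highest *Plau*, *Plaur* and *Serpinb2*. OS3 had the lowest *Plaur* and *Serpinb2*. The summed signal of 7 fibroblast markers was 144386 in OS1+OS2, 264319 in OS3, 103591 in OS4+OS5 and 88254 in OS6, with 6 of the 7 well above background on every otosphere array and a range of 191751 to 295826 in CSE and 3751 to 5612 in ESCs. That of 7 keratinocyte markers was 6278, 6505, 14231 and 34417 in the same otosphere samples, 3745 to 8734 in CSE and 3749 to 5682 in ESCs. Of these 7 markers, 5 were well above background on all otosphere arrays. *Krt17* had a mean log2 signal of 12.07 ± 2.32 (SD, n = 4) in otospheres and 5.55 ± 0.08 (n = 3) in CSE, and *Sprr1a* was at 10.56 ± 1.37 and 6.03 ± 0.29. The basal keratins *Krt5* and *Krt14* were at 6.40 ± 0.29 and 6.16 ± 0.14 in otospheres and at 6.52 ± 0.34 and 6.35 ± 0.28 in CSE. Schwann cell markers (6 genes) summed to 12661 to 16294 in otospheres, 14801 to 23063 in CSE and 3366 to 5181 in ESCs. The part of these cell types in the levels of the 5 genes was not tested.

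The genes whose profile over the 9 samples was most like that of each gene were taken from all named genes with 1 probe each. For *Plau* these were *Tspo* (Pearson r = 0.992), *Sync* (0.985) and *Slc6a8* (0.984), and for *Plaur* they were *Actn1* (0.986), *Acot9* (0.983) and *Rnf39* (0.982). For *Plat* they were *Mpc2* (0.992), *Ccnd2* (0.991) and *Prkg1* (0.991). *Actn1* encodes an actinin that crosslinks actin, *Tspo* a protein of the outer mitochondrial membrane and *Ccnd2* the cell cycle regulator cyclin D2. *Serpine2* was closest to *Rasa3* (0.972), *Pde10a* (0.967) and *Vmn2r111* (0.964), and *Serpinb2* to *Ddn* (0.992), *Cyp1a2* (0.990) and *Sprr1a* (0.990), a precursor of the cornified cell envelope. The samples share the 3 groups and the normalization, and r describes these arrays only.

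The other genes of the system were taken from a list of 29 genes in 5 roles, all of them measured. This list and that of the clade B serpins below were chosen with earlier results of these data known. Their counts and p-values are therefore no independent test of the system. Between otospheres and CSE, 4 were higher in otospheres and 2 lower by limma with an adjusted p under 0.05 (7.17% and 10.3% of named genes were called higher and lower). The median log2 difference of the 29 genes was 0.071, beside -0.0072 over all named genes. All otosphere samples were above all CSE samples for 7 of the 29 genes and below them for 5 (14.1% and 18.9% of named genes). The 6 called genes were *St14*, *Vldlr*, *Igf2r* and *Pdgfd*, which were higher, and *Serpini1* and *Lrp2*, which were lower.

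**Figure D4:**
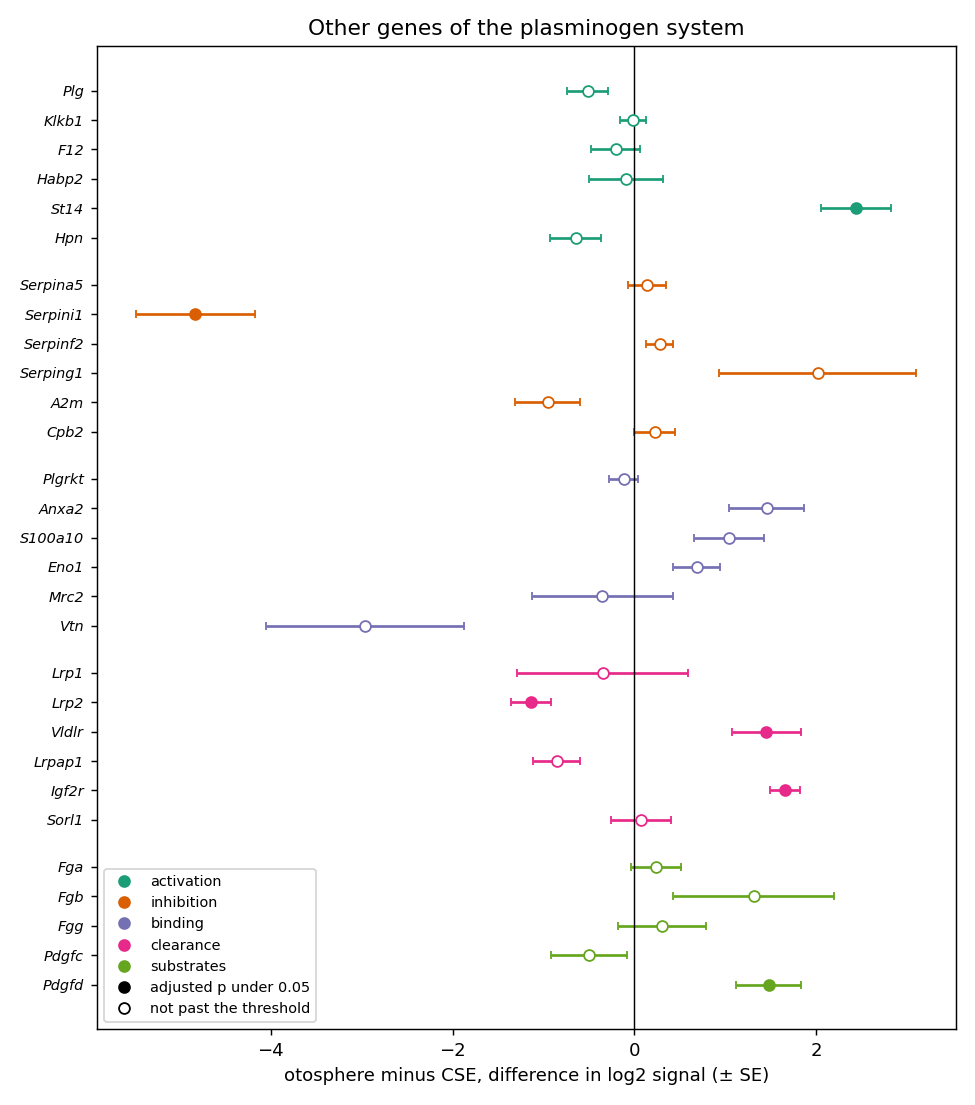
Difference in log2 signal between otospheres and CSE (horizontal axis, ± SE) for 29 other genes of the plasminogen system (vertical axis), coloured by role. Filled symbols had an adjusted p under 0.05 by limma: 4 higher and 2 lower, with *St14* at 2.44 and *Serpini1* at -4.83 as the extremes among them.

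Plasminogen itself, *Plg*, was not well above background on any of the 6 otosphere arrays, at a mean log2 signal of 4.95 ± 0.15 (SD, n = 4), and on 2 of 3 CSE arrays and 1 of 2 ESC arrays. The liver is its main known source. Of the 6 genes of the activating role, 1 was called, *St14*, which encodes matriptase, a membrane serine protease of epithelia that can activate pro-urokinase. Its log2 signal was 12.91, 12.16, 13.39 and 13.31 in the otosphere samples against 10.49, 10.29 and 10.73 in CSE and 12.17 and 10.77 in ESCs. All otosphere samples were above CSE, with a log2 difference of 2.44 (SE 0.39, adjusted p = 0.00450), 2.14 within the first slide and 2.62 within the second. *Hpn*, the gene of hepsin, another membrane protease, had a difference of -0.65 (SE 0.28, adjusted p = 0.216).

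Of 6 inhibitors, 0 were higher and 1 lower in otospheres. *Serpini1*, the gene of neuroserpin, a neuronal inhibitor of tissue plasminogen activator, was at 6.21, 6.35, 6.52 and 6.36 in otospheres against 11.70, 11.77 and 10.10 in CSE and 6.55 and 9.53 in ESCs. All otosphere samples were below every other sample. The difference from CSE was -4.83 (SE 0.66, adjusted p = 0.00212), -5.45 within the first slide and -3.66 within the second. The gene has 2 kept probes, and the mean over both gave -3.09, which also passed the threshold. The summed signal of 6 neuronal markers was 3910 to 10454 in otospheres, 20291 to 48625 in CSE and 20748 to 25635 in ESCs. Of these 6 markers, 4 were well above background on every otosphere array and 6 on every CSE array. *Stmn2* had a mean log2 signal of 5.47 ± 0.42 (SD, n = 4) in otospheres and 13.15 ± 0.49 (n = 3) in CSE. *Tubb3* (7.81 and 12.13), *Nefh* (6.83 and 12.65), *Elavl4* (8.54 and 10.40) and *Nefl* (7.25 and 12.73) were lower in otospheres too. *Snap25*, the brightest of the 6 in otospheres, was at 12.34 ± 0.76 and 12.32 ± 1.35. The part of neurons in the *Serpini1* difference was not tested.

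The remaining 5 inhibitors were not called. *Serping1*, the complement C1 inhibitor, had the widest spread, at 12.96, 14.05, 10.94 and 8.86 in otospheres and 9.92, 9.13 and 10.01 in CSE. The groups overlapped, with a difference of 2.01 (SE 1.09, adjusted p = 0.344), 3.98 within the first slide and -0.12 within the second. *Serpina5* and *Serpinf2*, the genes of protein C inhibitor and of antiplasmin, were each well above background on 1 of the 11 arrays.

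Of the 6 genes for binding plasminogen or its activators at the cell surface or in the matrix, 0 were called between otospheres and CSE. *Anxa2* and *S100a10*, whose products form a complex that holds plasminogen and tissue plasminogen activator on the membrane, had all otosphere samples above all CSE samples without passing the threshold. *Anxa2* was at 17.09, 16.51, 18.11 and 18.18 in otospheres and 15.96, 15.81 and 16.28 in CSE, a difference of 1.45 (SE 0.41, adjusted p = 0.0567). That of *S100a10* was 1.04 (SE 0.38, adjusted p = 0.139). Without OS3, or with every array as a separate sample, *Anxa2* passed (adjusted p = 0.0135 and 0.0189). *Vtn*, the gene of vitronectin, which binds the urokinase receptor, was at 6.27, 5.49 and 5.33 in OS1+OS2, OS4+OS5 and OS6 but at 10.47 in OS3, against 9.77 to 9.90 in CSE. Its difference from CSE was -2.96 (SE 1.09, adjusted p = 0.136), and -4.15 without OS3 (adjusted p = 0.000149). In the log2 table of the authors it was -0.31 (adjusted p = 0.419).

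Of the 6 clearance genes, 2 were higher and 1 lower. *Igf2r*, the mannose 6-phosphate receptor, which binds the urokinase receptor and plasminogen, was at 13.12, 12.95, 13.15 and 12.86 in otospheres, 11.61, 11.12 and 11.35 in CSE and 10.76 and 10.64 in ESCs. The 3 groups did not overlap, and the difference from CSE was 1.66 (SE 0.17, adjusted p = 0.000525). It was 1.67 within the first slide and 1.65 within the second, and 0.17 (adjusted p = 0.645) in the table of log2 values that the authors deposited. *Vldlr*, the gene of a lipoprotein receptor that takes up complexes of activators with their inhibitors, had a difference of 1.45 (SE 0.38, adjusted p = 0.0403), 0.59 within the first slide and 2.63 within the second. *Lrp2*, the gene of megalin, was 1.13 lower on the log2 scale (a difference of -1.13, SE 0.22, adjusted p = 0.0116). *Lrp1*, the best known clearance receptor of the system, was at 13.30, 13.08, 11.48 and 8.99 in otospheres and 12.63, 11.89 and 11.68 in CSE, and the groups overlapped.

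Among 5 substrate genes, *Pdgfd*, which encodes a growth factor freed by urokinase, was called. It was at 8.13, 8.12, 9.21 and 9.37 in otospheres, 7.17, 7.38 and 7.16 in CSE and, with 0 of 2 arrays well above background, at 4.40 and 5.12 in ESCs. Otospheres were above CSE by 1.48 (SE 0.35, adjusted p = 0.0297), 0.86 within the first slide and 2.13 within the second, and at least 13.7-fold above ESCs. *Pdgfc*, whose product is freed by tissue plasminogen activator, differed by -0.50 from CSE without passing the threshold, and the 3 fibrinogen chains *Fga*, *Fgb* and *Fgg* were not called either.

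The calls of *Vldlr* and *Pdgfd* were lost in 11 and 10 of 21 alternative settings, and that of *Lrp2* in 3, while those of *St14* and *Serpini1* were lost in 0, and that of *Igf2r* in 1. Without OS3, 7 of the 29 genes were called higher and 5 lower. The share of all named genes called without OS3 is not given, so nothing about these genes is read from that change.

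**Figure D5:**
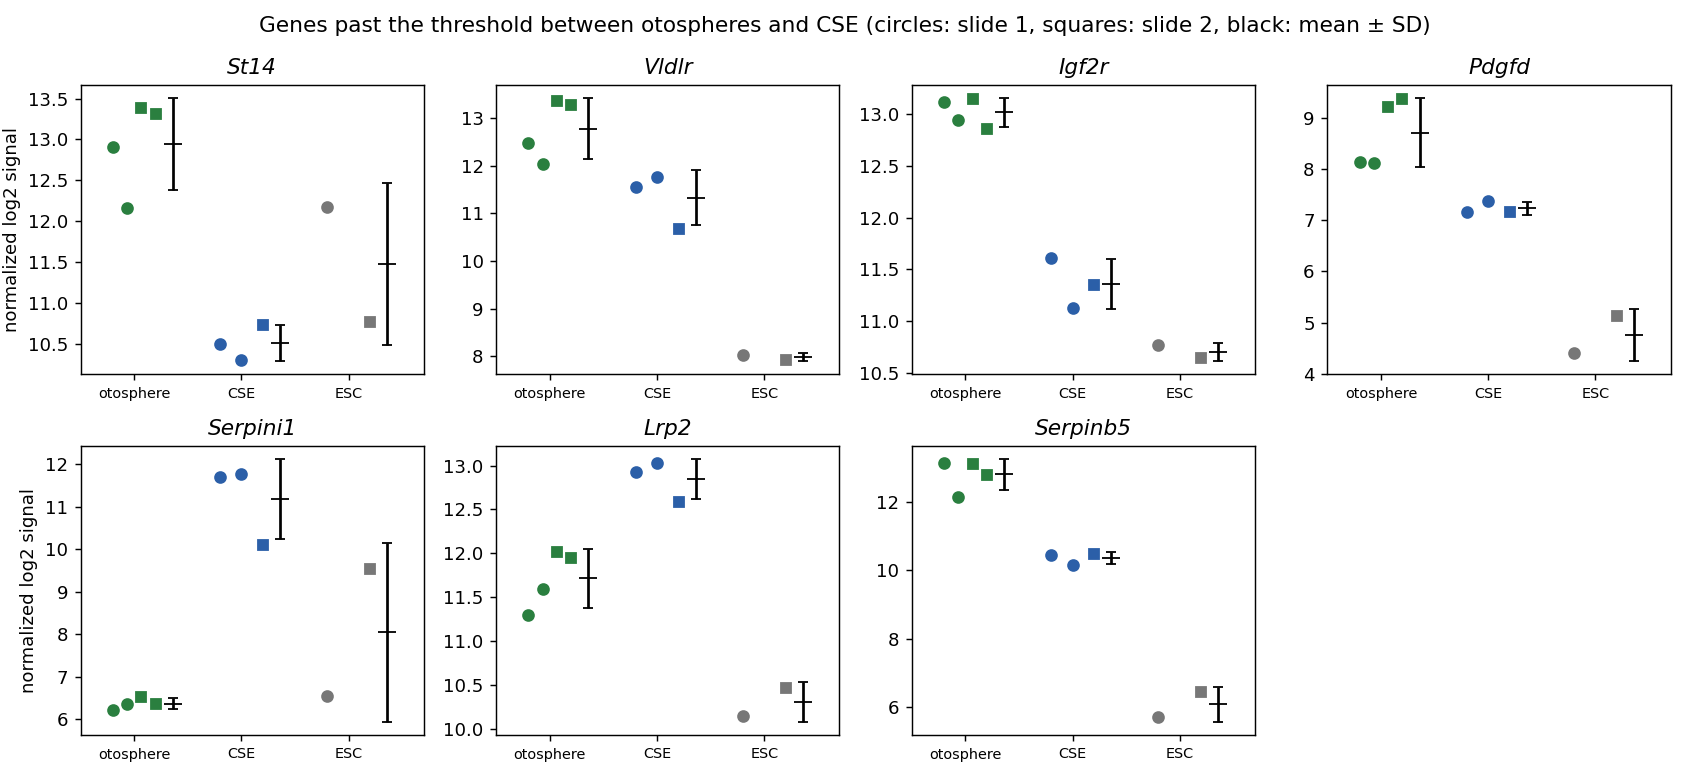
Normalized log2 signal (vertical axis, 1 scale per gene) of the 6 genes of the system, and of *Serpinb5*, that passed the threshold between otospheres and CSE, by group (horizontal axis). Circles are samples of slide 1, squares those of slide 2, and black bars the mean ± SD. In each panel the 4 otosphere samples lie on 1 side of the 3 CSE samples.

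Against ESCs, 9 of the 29 genes were higher in otospheres and 1 lower, where 18.4% and 20.4% of named genes were. The higher genes were *St14*, *Hpn*, *Plgrkt*, *Anxa2*, *Lrp2*, *Vldlr*, *Igf2r*, *Pdgfc* and *Pdgfd*, with *Vldlr* at a log2 difference of 4.80 and *Anxa2* at 3.64, and *Habp2* was lower. Between CSE and ESCs, 10 were higher in CSE and 2 lower (20.9% and 20% of named genes). The lower genes were *Habp2* and *Eno1*, the gene of a glycolytic enzyme that also binds plasminogen at the cell surface, with -1.52 on the log2 scale (SE 0.31, adjusted p = 0.00587). *Habp2* was well above background on 0 of 6 otosphere and 0 of 3 CSE arrays, and was at 5.74 in ESC1 and 7.80 in ESC2. Both of its calls are thus against signals near the background, with the ESC lines far apart. These comparisons share the otosphere or ESC samples. The F-test of the 3 groups called 12 of the 29 genes (48.7% of named genes).

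*Serpinb2* lies in a cluster of clade B serpin genes on chromosome 1, and 8 of 11 others from that cluster had a kept probe. Of these, *Serpinb5*, the gene of maspin, an epithelial serpin, was higher in otospheres than in CSE, and the other 7 were not called (7.17% of named genes were called higher). *Serpinb5* was at 13.15, 12.16, 13.12 and 12.81 in otospheres, 10.44, 10.17 and 10.49 in CSE and 5.71 and 6.42 in ESCs. The 3 groups did not overlap, with a difference from CSE of 2.45 (SE 0.28, adjusted p = 0.000935). In each of 21 alternative settings 1 gene of this cluster was called higher and 0 lower. Unlike *Serpinb2*, *Serpinb5* was well above background in all 3 groups. *Serpinb8*, also an intracellular serpin, was at 12.46 to 12.88 in otospheres and 12.84 to 13.22 in CSE, a difference of -0.37 (SE 0.17, adjusted p = 0.260).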

How the data were processed

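The 11 single-colour arrays had been hybridized with label from 50 or 100 ng of RNA. Per the file headers, the scanner files were made by Feature Extraction (version 10.7.3.1), and as deposited they give each spot's median intensity and local background on a linear scale, a processed intensity, and other flags (well above background, saturated, outlier). The authors also deposited a log2 table, which per the labels was made with limma (version not given in the sources used here). Their methods name background correction, quantile normalization and a filter on dim probes.

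Here the median intensity was corrected by normexp with an offset of 16 (limma 3.58.1, R 4.3.3), put on the log2 scale and quantile-normalized. Outlier and control spots were dropped and repeated spots averaged. Probes had to exceed the 95th percentile of 308 negative control spots by 10% on 2 or more arrays (the methods of the study use 3 arrays, but the ESC group has 2), and 47997 of 55681 probes remained. RefSeq accessions named 26762 probes, and a gene was read from its brightest kept probe. Levels of different probes were set against each other in picking that probe, in the summed signals of marker lists and in ranking markers within a list.

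A limma model of the 3 group means gave the differences, with Benjamini-Hochberg adjustment over all kept probes and a threshold of 0.05. Otospheres of the 2 slides were compared in a separate limma model. The study's one-way analysis of variance was an alternative to the F-test, beside other offsets, scalings, filters, slide and replicate blocks and leaving out samples. Where no array of the lower group was well above background, the fold is a bound. It is taken against the higher of the probe's own signal and the lowest signal flagged as well above background on each array. Both the bound and the fitted difference depend on the offset.

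The 5 genes and all lists were chosen with earlier results of these data known. Named by rule are the 5 genes, 29 other genes of the system (1 further gene of the list is not reported here), clade B serpins, marker lists as counts, and the 3 genes most like each of the 5. Single markers were picked after their values were seen. The model was tested on simulated data.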

Additional observations from a re-analysis of the deposited data

Results flagged for a closer look

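Among the 4 otosphere samples, each of 42 genes (the 5 genes, the 29 others of the system and 8 clade B serpins) was checked for a highest or lowest sample whose gap to the nearest other, divided by the range, exceeded Dixon's 95% critical value for 4 samples. Chance passes about 1 in 20 genes, and 2 of 42 passed. *Hpn*, the gene of hepsin, was lowest in OS3 at a log2 signal of 11.41, below 12.13 to 12.25 in the other otosphere samples. *Serpinb7* was lowest in OS6 at 4.84, below 5.15 to 5.21, with signals near the background. None of the 5 genes of the plasminogen activator system passed this check, although *Serpine2* had the widest range of the 5.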

How the results depend on the processing

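Of 15 differences between groups of the 5 genes, those of *Plau*, *Plaur* and *Serpinb2* between otospheres and CSE kept their direction in all 21 alternatives, from 3.34 to 6.92, 4.58 to 6.21 and 2.16 to 5.94 on the log2 scale. The highest values came from the processed intensity scaled to the 75th percentile. *Plat* between otospheres and CSE also kept its direction in all 21 (0.07 to 1.01), although its main difference was smaller than its SE. The genes were chosen with these levels known, and a kept direction is not read as support. Between otospheres and ESCs, *Plau* ranged from 3.17 to 5.61, *Serpinb2* from 1.98 to 4.93 and *Plat* from 4.37 to 6.37. *Serpine2* between otospheres and CSE ranged from -2.18 within the second slide to 1.31 with the replicate block and changed sign in 3 of 21, and *Plaur* between otospheres and ESCs from -0.73 to 0.66. The cause was not tested.

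Counts among the 29 other genes moved as follows. The shares of all named genes are given for the main setting only, so these changes are not read as particular to the 29 genes. For otospheres against CSE (4 higher, 2 lower), the log2 table of the authors gave 2 higher, the scaled processed intensity 1 lower and every array as a separate sample 5 lower. Leaving out 1 sample in turn gave 2 to 7 higher and 1 to 5 lower. The highest counts, 7 and 5, came without OS3, 2 higher came without OS4+OS5, OS6, CSE1, CSE2 or CSE3, and 1 lower without CSE1. For otospheres against ESCs (1 lower), the count of lower genes was 2 with the scaled processed intensity, 0 in the table of the authors, 3 with every array separate, 4 with the slide as a block, 0 within the first slide and 4 within the second. It was 0 to 3 on leaving out samples (3 without OS3, 2 without ESC1, 0 without OS4+OS5 or ESC2). For CSE against ESCs (2 lower), the slide as a block gave 4 lower, an offset of 50 and the table of the authors 1 each, and leaving out samples 1 to 3 (1 without OS1+OS2, OS4+OS5, CSE1 or CSE2). For the slides of otospheres (0 of the 5 genes), every array as a separate sample gave 1, and leaving out samples 0 to 1 (1 without OS4+OS5). The one-way analysis of variance called 12 genes, as many as the F-test.

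Same-numbered arrays of different groups had deviations correlated from -0.393 to 0.356, above 0.1 in 1 of 7 pairs. Not every array correlated best with its own number, and the main model did not pair samples by number. The deviations are from group means of few arrays, so these correlations cannot exclude shared preparations. With the replicate block and every array separate, 6 genes were higher and 2 lower between otospheres and CSE, 0 were lower between otospheres and ESCs, and *Serping1* passed between otospheres and CSE (3.63, adjusted p = 0.00389). Within slides a group can hold 1 sample, which is assumed to vary like the other groups. *Habp2* and 6 clade B serpins had no row used from the table of the authors. Signal near the background limits *Plau* and *Serpinb2* in CSE and ESCs, and 2 to 4 samples per group limit all comparisons.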
